A study of Mus musculus with 18 samples.

Results

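The SLC25 genes encode the mitochondrial carrier family, and 39 genes of that name (Slc25a and a number) were taken from the 14451 in the table of normalized values. The rule uses the name only. Others so named were not analysed here, among them 6 in the GENCODE M21 annotation (Slc25a2, Slc25a18, Slc25a31, Slc25a41, Slc25a43 and Slc25a54). RNA was sequenced from 18 whole livers of wild-type (WT) male mice aged 8 to 9 weeks and kept under 12 h of light and 12 h of dark. Livers were taken at 6 zeitgeber times (ZT, hours after lights on), ZT1, ZT5, ZT9, ZT13, ZT17 and ZT21, with 3 mice at each, those with the best RNA of the group. The labels name no treatment, each mouse gave 1 liver at 1 time, and the design holds a single day. All values below are on the linear scale of the deposited table, an estimated read count scaled by the authors to a common library size, and an amplitude is the distance from the middle to the peak of a 24 h cosine on log2(value + 1). Depth lay between 10268168 and 23242842 estimated reads per liver, and the 39 carriers lay above the floor of the table in every liver and made 0.275% to 0.349% of the summed values of a liver.

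Carriers of this family sit, with few exceptions, in the inner mitochondrial membrane, which is closed to most charged molecules. Each is built from repeats of the same fold and alternates between a state open to the cytosol and a state open to the matrix, exchanging or cotransporting a metabolite, a nucleotide, a cofactor or an ion. In liver they connect cytosolic and mitochondrial steps of gluconeogenesis, the urea cycle, lipid synthesis from citrate, heme and iron-sulfur synthesis and oxidative phosphorylation. A 24 h course in their mRNA would be a course in the supply of transcript, and neither protein nor transport was measured.

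Promoter windows of 3 carriers are shown because these genes carry the results below: Slc25a47 had the largest daily amplitude, Slc25a13 was called by both methods used below and its window held an E-box, the element bound by the clock factors, and Slc25a25 had a wide spread between livers of the same time and a cAMP response element (CRE). Each is the 250 bases before a RefSeq transcription start on GRCm38.p6, written along the strand of the gene, with an E-box (CACGTG) or a CRE (TGACGTCA) in capitals and nothing in capitals where neither was found. They lie at chr12:108850879-108851128 on the plus strand for Slc25a47, at chr6:6217174-6217423 on the minus strand for Slc25a13 and at chr2:32424067-32424316 on the minus strand for Slc25a25, the last being 1 of 3 annotated starts of that gene.
Slc25a47: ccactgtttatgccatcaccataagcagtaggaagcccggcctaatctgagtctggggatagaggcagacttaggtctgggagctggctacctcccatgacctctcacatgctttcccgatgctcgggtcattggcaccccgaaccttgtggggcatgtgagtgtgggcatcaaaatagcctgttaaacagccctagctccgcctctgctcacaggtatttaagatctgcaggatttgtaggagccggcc
Slc25a13: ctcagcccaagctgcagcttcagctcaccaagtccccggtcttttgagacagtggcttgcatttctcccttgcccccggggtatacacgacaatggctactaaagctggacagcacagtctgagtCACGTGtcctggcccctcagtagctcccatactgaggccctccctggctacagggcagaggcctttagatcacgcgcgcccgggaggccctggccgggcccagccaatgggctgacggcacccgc
Slc25a25: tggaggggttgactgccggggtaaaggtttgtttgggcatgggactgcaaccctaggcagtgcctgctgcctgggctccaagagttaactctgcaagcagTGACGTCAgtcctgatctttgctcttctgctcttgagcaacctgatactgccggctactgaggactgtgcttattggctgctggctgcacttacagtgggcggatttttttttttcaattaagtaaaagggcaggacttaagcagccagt

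Windows outside chromosome 18 were searched, so Slc25a46 was left out. The search covered 41 windows of 31 carriers, some with more than 1 start. Among them were 6 of the 9 carriers called by both methods, the others being Slc25a32, Slc25a35 and Slc25a37. An E-box was found in 7 windows (17.1%, beside 6.02% of all 32851 windows searched). The 7 belong to 6 carriers (Slc25a1, Slc25a13, Slc25a14, Slc25a15, Slc25a33 and Slc25a36), since 2 overlapping windows of Slc25a14 share 1 E-box. Of these carriers, 2 had a daily cosine (Slc25a13 and Slc25a33), and Slc25a13 alone was called by both methods. The E-box of Slc25a13 began 125 bases before the start and that of Slc25a33 began 8 bases before it. A CRE was found in 2 windows (4.88%), 150 bases before the start shown for Slc25a25 and 161 bases before that of Slc25a36, beside 1.55% of all windows. The D-box (TTACGTAA, TTATGTAA or TTACATAA) and the core of the ROR element (TAGGTCA or TGACCTA), searched on both strands, were in none of the 41 windows, beside 0.931% and 2.23% of all windows. The letters of the E-box and the CRE read the same on both strands, and no motif searched contains another.

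The carriers differed widely in level, which is given here per kilobase of the principal transcript so that genes can be compared. Slc25a5 (Ant2, the ADP/ATP carrier of proliferating and metabolic tissues) was highest with a mean of 303 per kb over the 18 livers. Slc25a47, a carrier known for its restriction to liver, followed with 175, close to Slc25a39 (a glutathione carrier) with 172 and Slc25a3 (the phosphate carrier) with 159.6, then Slc25a1 (the citrate carrier) with 114. Slc25a27, an uncoupling protein of brain, was lowest with 0.317. In the plot of levels per kb, Slc25a47, Slc25a39 and Slc25a3 overlap from liver to liver, and with the length of all exons joined instead the order after Slc25a5 was Slc25a39, Slc25a47, Slc25a1, Slc25a13 and Slc25a3.

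**Figure D1:**
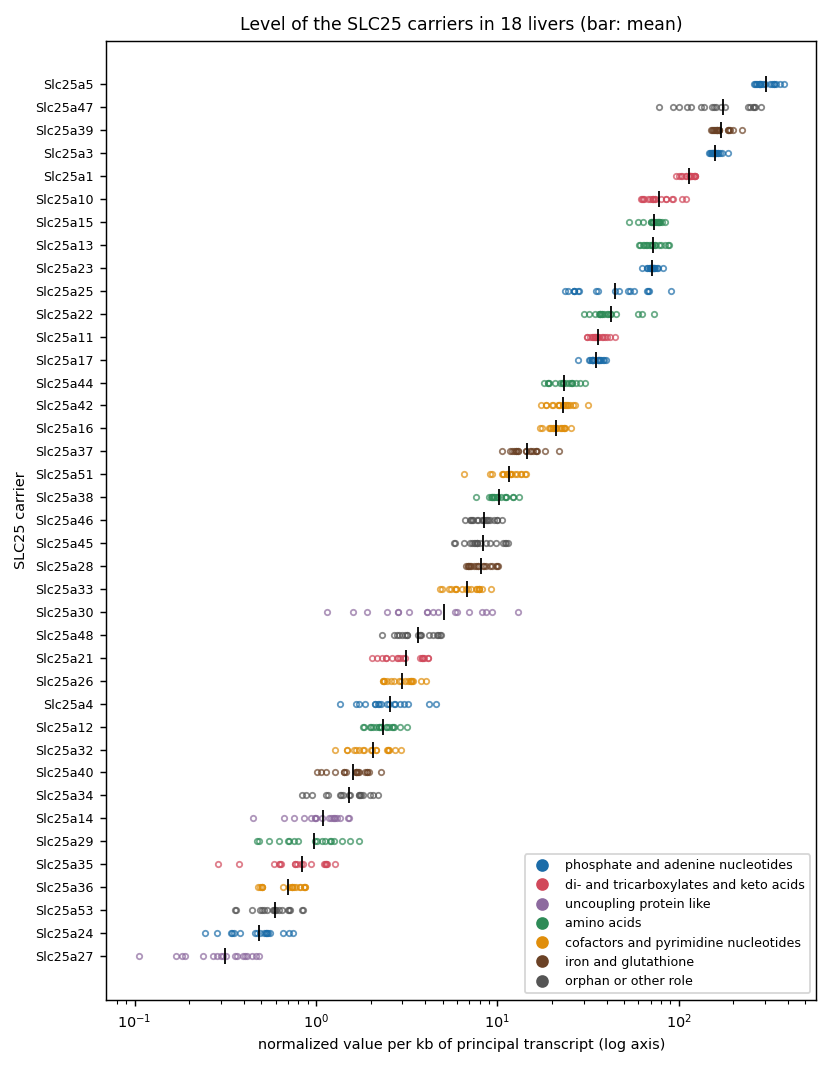
Level of each SLC25 carrier in the 18 livers, as normalized value per kb of principal transcript on a log axis, with 1 open point per liver, a bar at the mean and the colour giving the substrate group. The means run from 0.317 per kb for Slc25a27 to 303 per kb for Slc25a5, and the points of Slc25a47, Slc25a25 and Slc25a30 spread farther than those of their neighbours.

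These 5 carriers together held between 57.1% and 62.8% of the summed level per kb of the 39 in any liver. The part of Slc25a47 in that sum varied most among the 5, at 8.85% ± 1.69 (SD, n = 3) at ZT1, 16.2% ± 1.22 at ZT5, 16.5% ± 0.215 at ZT9, 9.96% ± 0.389 at ZT13, 7.9% ± 0.634 at ZT17 and 7.92% ± 3.01 at ZT21. At ZT5 and ZT9 it was thus close to the part of Slc25a5, which was 16.8% ± 0.491 and 17.5% ± 0.246 there and 22.7% ± 2.07 at ZT17.

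Over the day, 19 of the 39 carriers had a 24 h cosine in a limma moderated F test at an adjusted p below 0.05 (48.7%, beside 35.3% of all 14449 genes tested). A limma F test between the 6 time means, which assumes no shape, called 16 (beside 26.3% of all genes). The rank test JTK, run with periods of 20, 24 and 28 h, called 9 at a q-value below 0.05 (beside 14.0%), all of which were among the 19, so that both methods called 9 (beside 13.9%). The JTK calls were the least steady, with 3 to 8 of the 39 called when 1 liver was left out (3 without ZT5 replicate 2 or ZT9 replicate 3). The shares of all genes in these runs are not given here. Of the 9 only Slc25a28 and Slc25a13 kept their call in all 18 such runs. It was kept in 15 for Slc25a5, 12 for Slc25a32, 9 for Slc25a47, 7 for Slc25a11, 5 each for Slc25a35 and Slc25a37, and 2 for Slc25a29. The null of these runs takes the 6 times as distinct, although some of them share a cosine value. With equal cosine values taken as 1 group in its null, JTK called 15 (beside 22.4%), adding Slc25a10, Slc25a23, Slc25a38, Slc25a39, Slc25a44 and Slc25a46. The 9 were Slc25a47, Slc25a29, Slc25a32, Slc25a35, Slc25a37, Slc25a28, Slc25a5, Slc25a13 and Slc25a11 in the order of their amplitude. Another 2 passed the F test but not the cosine (Slc25a15 and Slc25a34, beside 2.87% of all genes), and 18 passed none of the tests. In bulk tissue, fewer cells of a type and less RNA per cell cannot be told apart.

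The 19 courses differed in size. Their amplitude ran from 0.15 ± 0.04 (SE) for Slc25a11 to 0.69 ± 0.09 for Slc25a47 on the log2 scale, and the ratio between the extreme time means from 1.27 to 2.38. Over all 39 carriers the median amplitude was 0.20 and the median ratio between the extreme time means was 1.4996, beside 0.16 and 1.48 over all genes. The coefficient of variation between livers of the same time had a median of 0.111 in the carriers and 0.138 in all genes, while that between times was 0.149 in both. The livers of the highest and the lowest time did not overlap in 33 carriers, beside 70.8% of all genes.

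Most peaks fell late in the light or early in the dark. Of these 19 carriers, 15 (78.9%) peaked between ZT6 and ZT18, as did 48.9% of the 5103 genes called (17.3% of all genes tested). In the light 11 peaked (57.9%, beside 51.6% of the genes called and 18.2% of all tested) and in the dark 8 (42.1%, beside 48.4% and 17.1%), shares near those of all genes called. The window from ZT6 to ZT18 was not named in the planned tests, and its share was not tested. The earliest peak was that of Slc25a42 at ZT1.01 and the latest that of Slc25a35 at ZT17.8. The plot of peak time against amplitude shows carriers around ZT11 to ZT12 (Slc25a28, Slc25a11, Slc25a13, Slc25a10 and Slc25a51). Others lie around ZT15 to ZT16 (Slc25a39, Slc25a38, Slc25a45, Slc25a44 and Slc25a5), with Slc25a29 at ZT12.3 and Slc25a37 at ZT13.4 between them. With 4 h between times and standard errors of the peak of 0.518 to 1.12 h, neighbours cannot be told apart in time. Whether the peaks form separate sets was not tested.

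**Figure D2:**
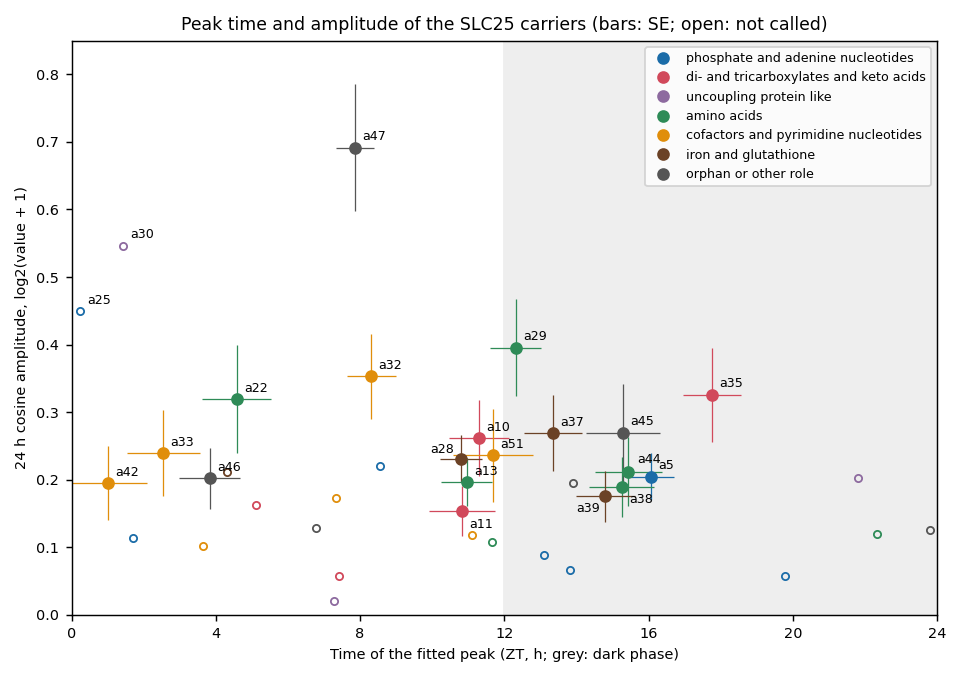
Time of the fitted 24 h peak (x, ZT in hours, dark phase in grey) against the cosine amplitude on log2(value + 1) (y) for the 39 carriers, coloured by substrate group, with SE bars on the 19 called by limma and open points for the rest. Slc25a47 stands highest at 0.69 ± 0.09 and ZT7.86, while Slc25a30 and Slc25a25 have the next amplitudes but were not called.

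The counts by substrate group stand beside 35.3% of all genes for the cosine, 26.3% for the F test and 14.0% for JTK. Among the 7 carriers of phosphate and adenine nucleotides, only Slc25a5 was called. Slc25a5 (ENSMUSG00000016319, chrX:36795651-36798807, plus strand) brings ADP into the matrix and ATP out. Its livers held 335, 348 and 348 at ZT1, then 323, 327 and 344 at ZT5, then 353, 333 and 342 at ZT9, then 446, 416 and 427 at ZT13, then 416, 473 and 393 at ZT17, and 403, 363 and 372 at ZT21. All 6 livers of ZT13 and ZT17 lay above all 9 of ZT1, ZT5 and ZT9. The amplitude was 0.20 ± 0.03 with a peak at ZT16.1 ± 0.652 h (limma adjusted p = 7.79e-04, JTK q = 0.0188). Its relative Slc25a4 (Ant1), the form of heart and muscle, was far lower per kb (2.55) and held 3.22, 4.41 and 4.06 at ZT1, then 8.79, 4.28 and 5.6 at ZT5, then 5.24, 5.92 and 6.23 at ZT9, then 5.2, 4.08 and 3.6 at ZT13, then 3.33, 8.09 and 4.72 at ZT17, and 2.62, 4.85 and 4.22 at ZT21. Livers of ZT5 and of ZT17 each spread over most of the range of the day, and the amplitude of 0.22 ± 0.11 did not pass (limma adjusted p = 0.253, 0.0498 without ZT17 replicate 2).

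Slc25a3, which brings phosphate into the matrix for ATP synthesis, had no daily course that passed a test. It held 239, 236 and 250.4 at ZT1, then 267, 252 and 249 at ZT5, then 247, 256 and 258 at ZT9, then 302, 273 and 247 at ZT13, then 259, 279 and 254 at ZT17, and 254, 264 and 244 at ZT21. The amplitude was 0.07 ± 0.03 (limma adjusted p = 0.27), and at most 1.13-fold separated 2 time means. The ATP-Mg/phosphate carriers, which set the size of the adenine nucleotide pool of the matrix and answer to calcium, were not called. Slc25a23 held 241, 234 and 210.3 at ZT1, then 237, 226 and 232 at ZT5, then 249, 241 and 237 at ZT9, then 274, 256 and 258 at ZT13, then 245, 237 and 246 at ZT17, and 243, 229.9 and 224 at ZT21. Its highest time was ZT13, the amplitude was 0.09 ± 0.03 and the limma adjusted p was 0.0769, or 0.0317 with an intensity trend in limma. Slc25a24, near the lowest level of all, held 1.84, 1.68 and 1.58 at ZT1, then 2.55, 2.26 and 1.31 at ZT5, then 0.979, 1.82 and 1.83 at ZT9, then 1.17, 0.842 and 1.79 at ZT13, then 2.44, 1.21 and 1.87 at ZT17, and 1.19, 1.62 and 1.92 at ZT21. Its highest and lowest time overlapped (limma adjusted p = 0.523).

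Slc25a25 (ENSMUSG00000026819, chr2:32414487-32451445, minus strand), the third ATP-Mg/phosphate carrier, differed more between livers of the same time than between most times. It held 87.3, 177 and 299 at ZT1, then 86.9, 227 and 148 at ZT5, then 93.3, 91.7 and 187 at ZT9, then 119, 81 and 116 at ZT13, then 77.8, 87 and 154 at ZT17, and 173, 219.8 and 224 at ZT21. The 3 livers of ZT1 span most of the range seen over the whole day. At ZT21 all 3 were high, and the lowest of them, 173, lay above all 3 of ZT13 and of ZT17. The amplitude of 0.45 ± 0.17 was the third among the carriers, but did not pass (limma adjusted p = 0.105), and it did pass without ZT1 replicate 1, at 0.59 (limma adjusted p = 0.0214). The coefficient of variation between livers of the same time, 0.366, was above that of 86.4% of genes. Some exon bases (379 of 7862) overlap those of Naif1 on the other strand. Slc25a17, the peroxisomal nucleotide carrier, ran from 48 to 68.8 and was not called (limma adjusted p = 0.543).

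Of the 5 carriers of di- and tricarboxylates and keto acids, 3 had a daily cosine. Slc25a11 (ENSMUSG00000014606, chr11:70644196-70647479, minus strand) exchanges malate for oxoglutarate in the malate-aspartate shuttle. It held 57.2, 58.2 and 53.5 at ZT1, then 64.5, 59.1 and 65.1 at ZT5, then 60.4, 62.1 and 71.9 at ZT9, then 76.4, 67.2 and 68.5 at ZT13, then 57.4, 61.7 and 59.6 at ZT17, and 53.1, 55.3 and 59.1 at ZT21. The highest livers were those of ZT13 and 1 of ZT9, and the amplitude of 0.15 ± 0.04 at ZT10.8 was the smallest called (limma adjusted p = 0.0116, JTK q = 0.0344, limma F test adjusted p = 0.0556). Slc25a10, the dicarboxylate carrier, peaked at ZT11.3 with 185, 211 and 221 at ZT13, all above the livers of every other time but for 1 of ZT5. The lowest time mean was that of ZT21, with 129, 125 and 138, and 2 livers of ZT1 lay within this range (amplitude 0.26 ± 0.06, limma adjusted p = 0.00519, JTK q = 0.0524).

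Slc25a35 (ENSMUSG00000018740, chr11:68968131-68974365, plus strand), placed here by likeness and with no settled substrate, had the latest peak. It held 1.56, 1.71 and 0.685 at ZT1, then 0.527, 1.07 and 1.14 at ZT5, then 1.18, 1.16 and 1.4 at ZT9, then 1.4, 1.52 and 2.08 at ZT13, then 2.33, 1.44 and 2.05 at ZT17, and 2.06, 2.1 and 2.01 at ZT21, from 6 to 33.5 estimated reads per liver. The livers of ZT21 lay above all livers of ZT5 and ZT9. The amplitude was 0.33 ± 0.07 at ZT17.8 ± 0.815 h (limma adjusted p = 0.00473, JTK q = 0.0354), a scale on which the added 1 shrinks the change of so low a gene. It shares 1151 of its 3677 exon bases with Rangrf on the other strand. The study names a NEBNext Ultra RNA library kit and no step that keeps the strand. The strand used in counting is not given in the sources used here, and whether reads of Rangrf add to these values was not tested. Slc25a1, which exports citrate for lipid synthesis, was not called and held 189, 201 and 204 at ZT1, then 194, 193 and 192 at ZT5, then 192, 203 and 167 at ZT9, then 205, 198 and 205 at ZT13, then 162, 182 and 193 at ZT17, and 174, 172 and 183 at ZT21. The ratio between its highest and lowest time mean was 1.15 and the amplitude 0.06 ± 0.04 (limma adjusted p = 0.48). Slc25a21, the oxodicarboxylate carrier, ran from 5.34 to 10.8 and was not called.

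Of the 7 amino acid carriers, 5 were called by the cosine, 4 by the F test and 2 by JTK. Slc25a29 (ENSMUSG00000021265, chr12:108825873-108835883, minus strand), a carrier of basic amino acids, had the second largest amplitude of those called, at a low level. It held 0.934, 0.955 and 1.58 at ZT1, then 1.09, 1.38 and 2.14 at ZT5, then 2.001, 2.75 and 3.05 at ZT9, then 3.4, 2.36 and 2.48 at ZT13, then 1.41, 2.38 and 2.21 at ZT17, and 1.49, 1.95 and 1.24 at ZT21, from 10 to 51 estimated reads per liver. The 6 livers of ZT9 and ZT13 all lay above the 3 of ZT1, and the highest time mean was 2.38 times the lowest. The amplitude was 0.40 ± 0.07 at ZT12.3 ± 0.699 h (limma adjusted p = 0.00144, JTK q = 0.0435). The JTK call was kept in only 2 of the 18 runs without 1 liver, the cosine call in all 18. Slc25a29 lies next to Slc25a47 on chromosome 12, on the opposite strand, and the fitted peak of Slc25a47 came earlier, at ZT7.86 ± 0.518 h.

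Slc25a13 (citrin, ENSMUSG00000015112, chr6:6041218-6217173, minus strand) is the aspartate-glutamate carrier of liver and serves the malate-aspartate shuttle and the urea cycle. It held 201, 191 and 206 at ZT1, then 221, 209 and 244 at ZT5, then 275, 249 and 229.98 at ZT9, then 232, 272 and 263 at ZT13, then 222, 219 and 221 at ZT17, and 188, 215 and 198 at ZT21. All livers of ZT9 and ZT13 lay above all of ZT1 and ZT21. The amplitude was 0.20 ± 0.04 at ZT11 ± 0.705 h (limma adjusted p = 0.00153, JTK q = 0.0131). Slc25a12 (aralar), the form of brain and muscle with the same substrates, held 15.4, 14.1 and 16.1 at ZT1, then 14.6, 13.1 and 12.6 at ZT5, then 11.5, 16.8 and 20.3 at ZT9, then 18.5, 16.8 and 15.7 at ZT13, then 11.6, 14.5 and 17.2 at ZT17, and 13.6, 14.1 and 12.8 at ZT21. Its livers overlapped between most times, and its amplitude was 0.11 ± 0.07 (limma adjusted p = 0.407).

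Slc25a22 (ENSMUSG00000019082, chr7:141429744-141437892, minus strand), a glutamate carrier, was raised at 1 time only. It held 109, 102 and 126 at ZT1, then 206, 176 and 167 at ZT5, then 114, 97.3 and 118 at ZT9, then 115, 103 and 90.5 at ZT13, then 106, 84.2 and 106 at ZT17, and 103, 119 and 104 at ZT21. The lowest liver of ZT5 lay above the highest of any other time. The F test between times gave a limma adjusted p of 0.00106, the cosine 0.0141 with an amplitude of 0.32 ± 0.08 at ZT4.58, and JTK q = 0.42. Slc25a15 (ENSMUSG00000031482, chr8:22375551-22398597, minus strand), which exchanges ornithine for citrulline in the urea cycle, showed the reverse at the next time. It held 258, 289.5 and 255 at ZT1, then 278, 264 and 266 at ZT5, then 204, 183 and 217 at ZT9, then 264, 248 and 244 at ZT13, then 272, 242 and 262 at ZT17, and 246, 266 and 242 at ZT21. The highest liver of ZT9 lay below the lowest of every other time, with time means of 201 ± 17.3 (SD, n = 3) at ZT9 and 269 ± 7.41 at ZT5. The F test passed (limma adjusted p = 0.0149), while the cosine did not (0.167).

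Both other amino acid carriers peaked in the dark with small amplitudes. Slc25a44, which brings branched-chain amino acids into mitochondria, ran from 63.1 to 106 with an amplitude of 0.21 ± 0.05 at ZT15.4 (limma adjusted p = 0.0118). Slc25a38, linked to glycine supply for heme synthesis, ran from 13.6 to 23.6 with 0.19 ± 0.04 at ZT15.3 (limma adjusted p = 0.0102). Neither passed the F test, nor JTK except with equal cosine values taken as 1 group in its null.

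**Figure D3:**
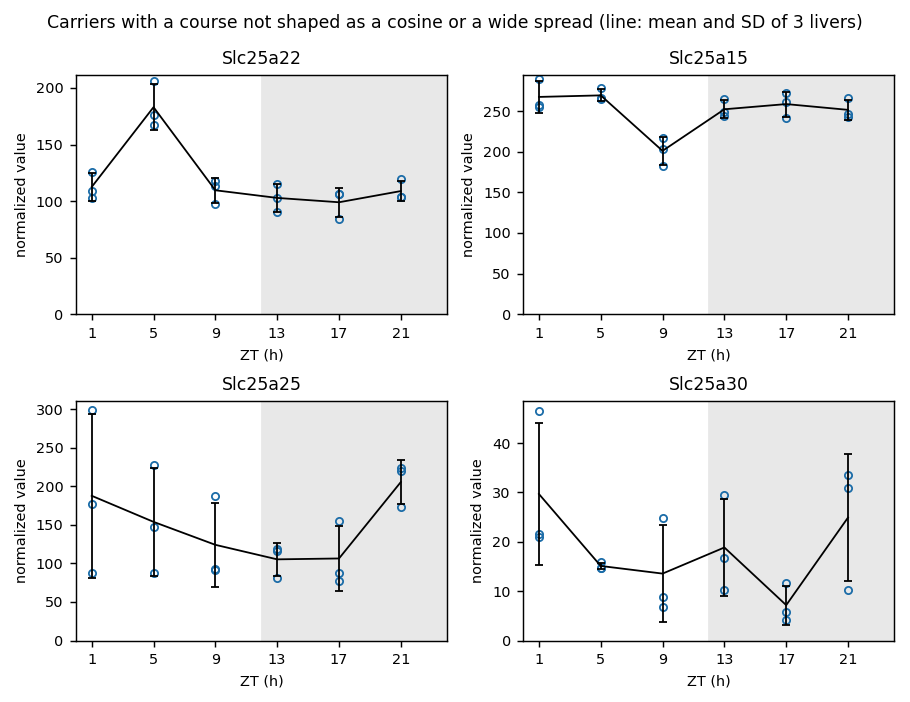
Normalized values (y, linear axis from 0) by ZT (x, dark phase in grey) of Slc25a22, Slc25a15, Slc25a25 and Slc25a30, with open points for livers and a line through the mean ± SD of 3 livers. Slc25a22 is high at ZT5 alone and Slc25a15 low at ZT9 alone, while the livers of Slc25a25 and Slc25a30 spread widely within a time.

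Of the 7 carriers of cofactors and pyrimidine nucleotides, 4 had a daily cosine. Slc25a32 (ENSMUSG00000022299, chr15:39091231-39112716, minus strand), which brings folate and flavin into mitochondria, held 10.8, 10.2 and 8.75 at ZT1, then 12, 14.7 and 15 at ZT5, then 17.3, 14.5 and 16.2 at ZT9, then 12.7, 12.7 and 14.8 at ZT13, then 7.51, 8.78 and 9.81 at ZT17, and 9.57, 11.9 and 10.9 at ZT21. All livers of ZT9 lay above all of ZT1, ZT17 and ZT21, and the highest time mean was 1.84 times the lowest. The amplitude was 0.35 ± 0.06 at ZT8.31 ± 0.681 h (limma adjusted p = 0.00114, JTK q = 0.0282). Slc25a51, the NAD carrier, ran from 29.2 to 63.7 with 0.24 ± 0.07 at ZT11.7 (limma adjusted p = 0.0343). Slc25a42, a coenzyme A carrier, ran from 55.6 to 101 with 0.19 ± 0.06 at ZT1.01 (limma adjusted p = 0.0301). Both of these missed the threshold when some single livers were left out, with amplitudes of 0.17 to 0.23 and limma adjusted p from 0.0562 to 0.0793. This held for Slc25a51 without ZT1 replicate 1 or 2, ZT9 replicate 1 or 3, or ZT13 replicate 1 or 3, and for Slc25a42 without ZT1 replicate 3 or ZT13 replicate 2 or 3.

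The pyrimidine nucleotide carriers serve mitochondrial DNA and RNA synthesis. Slc25a33 held 12.7, 17.5 and 15.6 at ZT1, then 13.5, 15 and 11.2 at ZT5, then 14.9, 14.5 and 13.1 at ZT9, then 9.35, 11.2 and 9.12 at ZT13, then 10.2, 12.1 and 10.5 at ZT17, and 14.5, 15.1 and 11 at ZT21. The 3 livers of ZT13 lay below all livers of ZT1 and ZT9, with an amplitude of 0.24 ± 0.06 at ZT2.54 (limma adjusted p = 0.0198, JTK q = 0.196). Slc25a36 held 4.05, 3.87 and 2.63 at ZT1, then 3.45, 4.28 and 4.47 at ZT5, then 3.87, 4.52 and 4.54 at ZT9, then 2.5, 2.57 and 2.65 at ZT13, then 3.94, 4.28 and 3.7 at ZT17, and 2.62, 3.85 and 4.58 at ZT21. It too was low in all 3 livers of ZT13, though 1 liver each of ZT1 and ZT21 fell in the same range, and the amplitude of 0.10 ± 0.08 did not pass (limma adjusted p = 0.564, F test 0.0709). Slc25a16 ran from 54 to 79.998 and Slc25a26, which brings S-adenosylmethionine into the matrix, ran from 4.5 to 7.77, and neither passed a test (limma adjusted p = 0.115 and 0.0804 for the cosine). The cosine of Slc25a26 passed without ZT21 replicate 2 (0.0254) or ZT21 replicate 3 (0.03297), with each liver scaled to the same total (0.04998) and with a 12 h term in the model (0.0408).

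Of the 4 carriers of iron and glutathione, 3 had a daily cosine, and both mitoferrins, which bring iron into the matrix for heme and iron-sulfur clusters, were called by JTK too. Slc25a28 (mitoferrin 2, ENSMUSG00000040414, chr19:43663801-43674881, minus strand) held 10.7, 11 and 10.4 at ZT1, then 12.8, 10.5 and 13 at ZT5, then 15.1, 15.4 and 14.4 at ZT9, then 14.1, 15.2 and 13.2 at ZT13, then 12, 12.1 and 11.8 at ZT17, and 11.4, 10.8 and 10.5 at ZT21. All 6 livers of ZT9 and ZT13 lay above every liver of the other times. The amplitude was 0.23 ± 0.04 at ZT10.8 ± 0.584 h (limma adjusted p = 3.05e-04, JTK q = 0.0152). Slc25a37 (mitoferrin 1, ENSMUSG00000034248, chr14:69241848-69285112, minus strand), the form needed in red cell precursors, held 50.6, 44.4 and 52.8 at ZT1, then 49, 52.9 and 63.3 at ZT5, then 64.4, 59.8 and 68.4 at ZT9, then 54.4, 91.2 and 76.1 at ZT13, then 68.1, 69 and 65.9 at ZT17, and 54.1, 60.3 and 51.5 at ZT21. Its ZT13 livers spread from 54.4 to 91.2, while those of ZT17 were close together and above all of ZT1 and ZT21. The amplitude was 0.27 ± 0.06 at ZT13.4 ± 0.806 h (limma adjusted p = 0.00437, JTK q = 0.0354, limma F test 0.0614).

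The glutathione carriers differed in level and in course. Slc25a39 (ENSMUSG00000018677, chr11:102402985-102407946, minus strand) held 259.5, 281 and 272 at ZT1, then 269, 263 and 258 at ZT5, then 274, 268 and 275 at ZT9, then 376, 334 and 316 at ZT13, then 318, 315 and 322 at ZT17, and 282, 282 and 255 at ZT21. The 6 livers of ZT13 and ZT17 lay above all 12 others, with an amplitude of 0.18 ± 0.04 at ZT14.8 ± 0.825 h (limma adjusted p = 0.00519, JTK q = 0.0542). Slc25a40, at 1.6 per kb against 172, held 6.33, 4.77 and 3.98 at ZT1, then 4.66, 3.98 and 5.33 at ZT5, then 5.45, 4.6 and 5.32 at ZT9, then 3.16, 4.07 and 5.18 at ZT13, then 3.53, 2.99 and 2.82 at ZT17, and 4.8, 4.67 and 4.66 at ZT21. Its lowest time was ZT17 and its fitted peak ZT4.3, with an amplitude of 0.21 ± 0.07 that did not pass (limma adjusted p = 0.0667). It passed without ZT1 replicate 3 (0.0467), ZT5 replicate 2 (0.0331) or ZT13 replicate 3 (0.0328), with each liver scaled to the same total (0.0324) and with a 12 h term (0.0334).

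None of the 3 carriers like uncoupling proteins was called by limma or JTK, with 1 at an unadjusted p below 0.05 in the F test and 0 in the others. Slc25a30, whose extreme time means differed 4.14-fold, more than those of any other carrier, held 46.4, 21.6 and 21.1 at ZT1, then 14.7, 15.9 and 14.8 at ZT5, then 24.9, 8.9 and 6.89 at ZT9, then 29.5, 16.8 and 10.2 at ZT13, then 4.15, 11.6 and 5.73 at ZT17, and 31, 10.1 and 33.6 at ZT21. The livers of ZT17 were low and 1 of ZT1 was the highest, but livers of 1 time differed by more than most time means. The amplitude of 0.55 ± 0.25 was second to that of Slc25a47, with a limma adjusted p of 0.203, and the coefficient of variation between livers of the same time, 0.474, was above that of 93% of genes. Slc25a14 ran from 0.792 to 2.68 and Slc25a27 from 0.305 to 1.41 (limma adjusted p = 0.107 and 0.979).

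Slc25a47 (ENSMUSG00000048856, chr12:108836046-108856815, plus strand) had the largest amplitude of the family on log2(value + 1), a scale that shrinks the change of low genes. It held 148, 217 and 243 at ZT1, then 381, 449.8 and 392 at ZT5, then 411, 403 and 417 at ZT9, then 284, 254 and 248 at ZT13, then 175, 184 and 209 at ZT17, and 123, 272 and 158 at ZT21. All 6 livers of ZT5 and ZT9 lay above all 12 of the other times, and the mean of ZT9, 411 ± 7.06, was 2.23 times that of ZT21, 184 ± 78.1 (SD, n = 3 each). The amplitude was 0.69 ± 0.09 at ZT7.86 ± 0.518 h (limma adjusted p = 9.64e-05, JTK q = 0.0282). The ratio between extreme time means was larger in Slc25a30 (4.14), Slc25a29 (2.38) and Slc25a35 (2.26). The ratios of Slc25a45 and Slc25a48, relatives of Slc25a47, to Slc25a47 changed over the day, as the test of pairs shows. Slc25a45 held 18, 16.3 and 20.03 at ZT1, then 14.6, 19.2 and 21.4 at ZT5, then 18.5, 14.4 and 18.8 at ZT9, then 28.3, 27.7 and 27.4 at ZT13, then 26.7, 24.4 and 19.1 at ZT17, and 22.6, 19.3 and 17.6 at ZT21. The 3 livers of ZT13 were the highest of all 18, with an amplitude of 0.27 ± 0.07 at ZT15.3 ± 1.03 h (limma adjusted p = 0.0218, JTK q = 0.596, and limma adjusted p = 0.0503 without ZT5 replicate 1). Slc25a48, linked to choline uptake by mitochondria, held 12.3, 12.8 and 9.03 at ZT1, then 15.9, 16.4 and 15.6 at ZT5, then 7.82, 10.1 and 14.1 at ZT9, then 16.5, 10.5 and 15 at ZT13, then 12.6, 9.49 and 10.7 at ZT17, and 10.8, 12.6 and 9.67 at ZT21. Livers of ZT5 were close together and high, those of ZT9 and ZT13 were spread, and the amplitude of 0.13 ± 0.09 did not pass (limma adjusted p = 0.517).

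Of the remaining carriers, Slc25a46, an outer membrane protein linked to mitochondrial shape, ran from 29.1 to 46.1 with an amplitude of 0.20 ± 0.04 at ZT3.84 (limma adjusted p = 0.00625, JTK q = 0.0542). Slc25a34 was low at ZT1 (2.53, 2.23 and 2.34) and highest at ZT5 (5.31, 3.6 and 5.89), and passed only the F test (limma adjusted p = 0.00484, cosine 0.266). Slc25a53 ran from 0.917 to 2.17 and passed no test (limma adjusted p = 0.269).

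**Figure D4:**
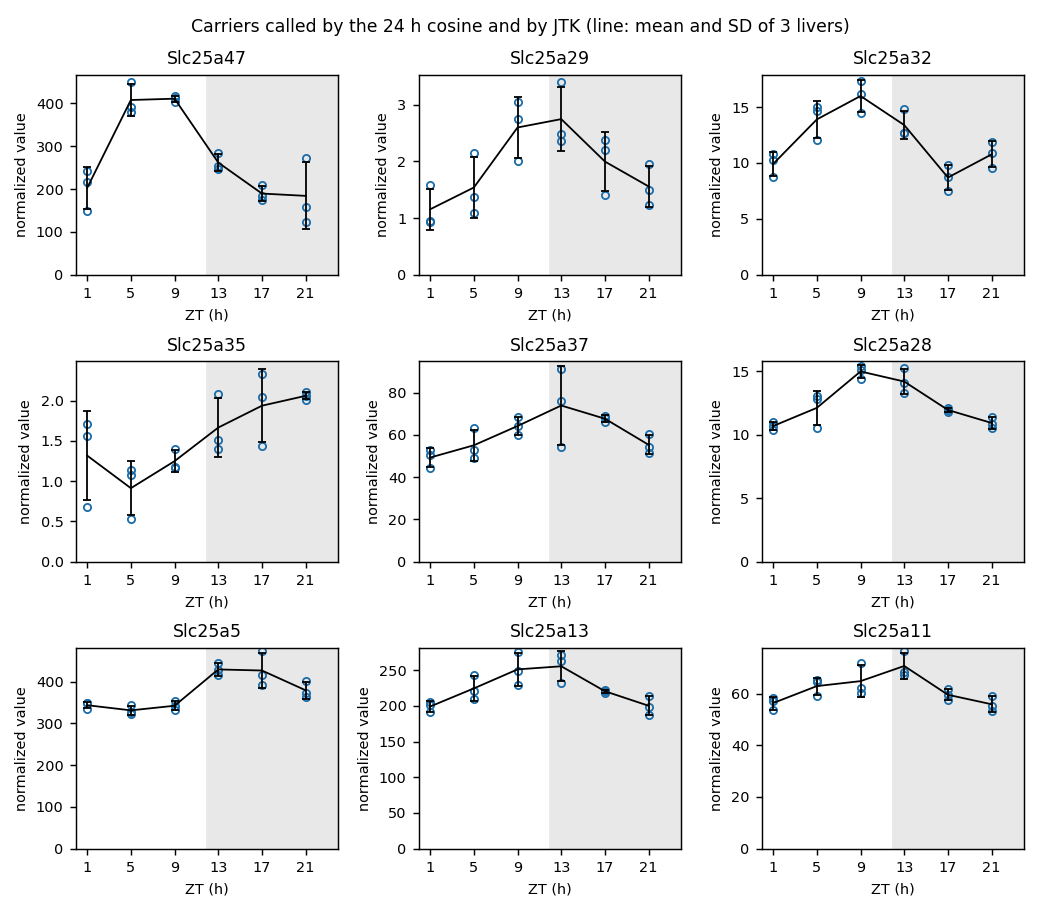
Normalized values (y, linear axis from 0) by ZT (x, dark phase in grey) of the 9 carriers called by the limma cosine and by JTK, with open points for livers and a line through the mean ± SD of 3 livers. Slc25a47 is high at ZT5 and ZT9, Slc25a28 and Slc25a32 are highest at ZT9, and Slc25a5 is raised from ZT13.

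To ask whether related carriers took different courses, the difference of their log2(value + 1), called their ratio here, was fitted with a 24 h cosine. This was done in each of 11 pairs, and the livers were permuted 100000 times. The added 1 shrinks the part of a low carrier, such as Slc25a24, in the ratio. The ratio changed over the day in 4 pairs. The pairs among Slc25a45, Slc25a47 and Slc25a48 are not independent, since any of their ratios follows from the others. The same holds for the pairs among Slc25a23, Slc25a24 and Slc25a25. Slc25a45 against Slc25a47 had a ratio amplitude of 0.83 with the ratio highest at ZT18.7 (permutation p = 2.70e-04, adjusted 0.00297). Slc25a47 against Slc25a48 had 0.57 (permutation p = 0.00245, adjusted 0.0134) and Slc25a45 against Slc25a48 had 0.36 (permutation p = 0.0114, adjusted 0.0314). Slc25a39 against Slc25a40 had 0.38 with the ratio highest at ZT15.6 (permutation p = 0.00365, adjusted 0.0134).

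In the other 7 pairs no difference in course was shown. For Slc25a12 against Slc25a13 the ratio amplitude was 0.09 (permutation p = 0.569, adjusted 0.569), although Slc25a13 was called and Slc25a12 was not. For the mitoferrins Slc25a28 against Slc25a37 it was 0.17 (permutation p = 0.046, adjusted 0.0784), and for Slc25a4 against Slc25a5 0.35 (permutation p = 0.0297, adjusted 0.0653). The pyrimidine carriers Slc25a33 and Slc25a36 had 0.15 (permutation p = 0.399, adjusted 0.439). The 3 pairs of ATP-Mg/phosphate carriers had adjusted permutation p-values of 0.0784 (Slc25a23 and Slc25a25), 0.195 (Slc25a23 and Slc25a24) and 0.338 (Slc25a24 and Slc25a25).

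**Figure D5:**
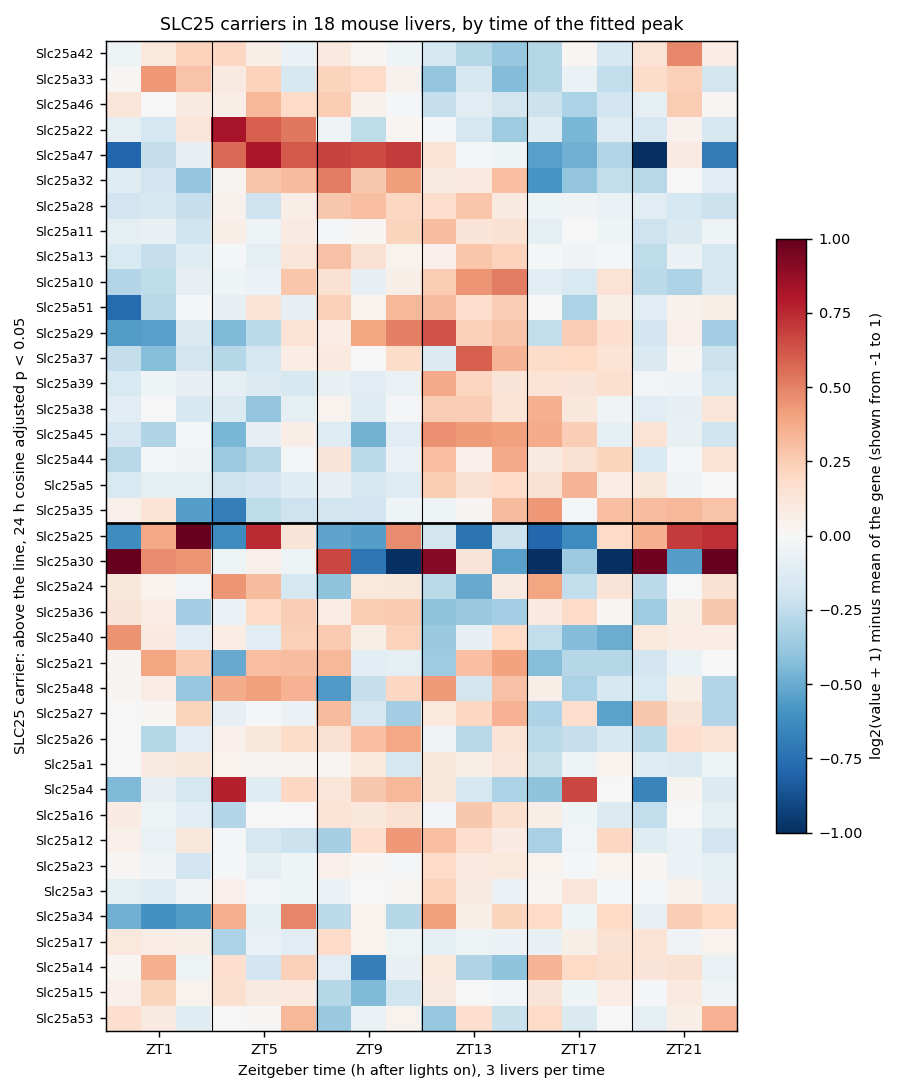
Log2(value + 1) of the 39 carriers (rows) in the 18 livers (columns, 3 per ZT) minus the mean of each gene, from blue (low) to red (high) with values beyond -1 and 1 shown at the end colours. Rows above the line are the 19 carriers with a 24 h cosine and run from the earliest fitted peak, Slc25a42, to the latest, Slc25a35, and those below are the other 20 in the same order.

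Genes around the carriers were counted for comparison, beside the 35.3% (cosine), 26.3% (F test) and 14.0% (JTK) of all genes. Of 3 proteins of the same family under other names, 2 had a daily cosine, Ucp2 (an uncoupling protein) with an amplitude of 0.32 ± 0.08 and Mtch2 with 0.12 ± 0.03. Of 17 other mitochondrial transporters and channels, 9 were called by the cosine, 7 by the F test and 5 by JTK. These parts were not smaller than those of the 39 carriers (19, 16 and 9). The largest amplitude among the 17 was that of Mcu, the pore of the calcium uniporter, with 0.58 ± 0.04 and a peak at ZT0.343. Of 9 genes that import carriers into the inner membrane, 4 were called by the cosine, 3 by the F test and 1 by JTK, among them Timm9, a chaperone of carriers between the membranes, with 0.25 ± 0.04 at ZT15.4. Of 9 enzymes of the malate-aspartate and glycerol phosphate shuttles and of citrate use, 5, 4 and 3 were called. Among them Got1, the cytosolic partner of the malate-aspartate shuttle, had 0.49 ± 0.15 at ZT4.36, while Slc25a11 and Slc25a13 of the same shuttle peaked at ZT10.8 and ZT11.

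Markers of other liver cells were counted in the same way, beside the 35.3% (cosine), 26.3% (F test) and 14.0% (JTK) of all genes. Of 6 Kupffer cell markers, 3 had a daily cosine with a peak in the light, 1 passed the F test and 0 JTK (2 at an unadjusted JTK p below 0.05), and the summed value of the 6 was 101 to 209 at ZT1, 174 to 236 at ZT5, 181 to 223 at ZT9, 165 to 218 at ZT13, 87.7 to 205 at ZT17 and 88.8 to 138 at ZT21. Of 5 endothelial markers, 2 had a daily cosine and 0 passed the F test or JTK (1 and 0 at an unadjusted p below 0.05), and the sum was 102 to 158 at ZT1, 152 to 190.4 at ZT5, 134 to 171 at ZT9, 113 to 157 at ZT13, 78.5 to 152 at ZT17 and 81.8 to 128 at ZT21. The Kupffer sum was on average highest at ZT9 and the endothelial sum at ZT5, both times at which Slc25a47 and Slc25a32 were high, and their part in these results was not tested. Of 4 bile duct markers, 3 had a daily cosine with a peak in the dark, 1 passed the F test and 1 JTK. Their sum was 11.7 to 15.1 at ZT1, 5.58 to 6.92 at ZT5, 6.04 to 7.87 at ZT9, 8.86 to 9.26 at ZT13, 9.1 to 13.6 at ZT17 and 8.71 to 12.3 at ZT21, so it was on average highest at ZT1 and next at ZT17. Among the 8 carriers called with a peak in the dark, Slc25a35 had time means of 1.32 ± 0.554 (SD, n = 3) at ZT1 and 1.94 ± 0.457 at ZT17, and the part of these markers was not tested either.

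The 5 erythroid markers in the table, which bear on Slc25a37 and Slc25a38, had no call by limma or JTK and 0 at an unadjusted p below 0.05, with sums between 108 and 674 in single livers. Hepatocyte markers were called in 2 of 5 (summed value 70580 to 100124), stellate markers in 0 of 5 and lymphocyte markers in 0 of 2 by limma or JTK (1 of each at an unadjusted cosine p below 0.05), the pancreas marker Cela1 was not called, and the adipocyte gene Cidec was. No marker in the table was at the floor in any liver. As a check of the time labels, Arntl, Nr1d1, Per2 and Dbp were called by all 3 tests, with peaks at ZT21, ZT6.2, ZT13.9 and ZT8.59.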

How the data were processed

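RNA from 18 livers was made into NEBNext Ultra libraries and sequenced on HiSeq2500. Per the labels and the study's methods, the authors used CASAVA 1.8.2, Cutadapt and RSEM 1.2.20 on the GRCm38 transcriptome and normalized with limma. What they deposited is a signal: 0.5 is added to each estimated read count, which is then scaled to a common effective library size. Reads that match several transcripts are split by RSEM, so similar carriers can exchange reads. Columns of other samples were absent. Results for some carriers are not reported here.

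Groups came from the zeitgeber time in the labels. Here log2(value + 1) of 14449 genes above the floor was fitted with limma 3.58.1 in R 4.3.3, as a 24 h cosine and as 6 time means (moderated F tests). JTK was written in Python 3.11.15 with the exact null of 6 distinct groups of 3. Some times share a cosine value in each order tested, and this null does not allow for such ties. The setting with equal cosine values as 1 group does. Their p-values were adjusted by Benjamini-Hochberg over all genes, with a threshold of 0.05, and the code was tested on simulated data. There 200 of 14449 genes had a cosine of 2-fold from trough to peak. The cosine fit recovered 145 of the 200, the F test 123 and JTK 94, with 8, 8 and 0 calls among the flat genes. A far larger share of genes was called in the data, which changes the adjustment. The recovered parts are therefore not the power of the tests there. Smaller courses were not simulated, so a carrier not called can still have a course. The study's own curve fits were not run, as their constants are not in its text. The 11 pairs were tested by permutation of livers on the amplitude of the ratio, adjusted over the 11, an analysis added after values were seen. The labels speak of separate mice, whose spread the p-values measure. Carriers named with values per liver were up to 10 with the largest amplitude called by both methods, the 5 highest per kb, and groups of related carriers, with Slc25a30 added after its values were seen. The members and lists were chosen with earlier results of these data known. Coordinates and lengths are from GENCODE M21 and promoters from RefSeq on GRCm38.p6. Alternatives covered pseudocount, filter, scaling, trend, thresholds and each liver left out. Depth limits Slc25a24, Slc25a27 and Slc25a35 most, each with at most 35.02 estimated reads in any liver.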

Additional observations from a re-analysis of the deposited data

How the results depend on the processing

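The cosine called 18 to 20 carriers when 1 liver was left out and 19 to 21 under another pseudocount, filter, scaling, trend or with a 12 h term, and 11 at an adjusted p below 0.01. The F test called 12 to 17 without 1 liver, 15 to 20 otherwise and 8 at 0.01. JTK called 3 to 8 without 1 liver, 15 (beside 22.4% of all genes) with equal cosine values taken as 1 group in the null and 0 at a q-value below 0.01 (15 at an unadjusted p below 0.05). It called 3 without ZT5 replicate 2 or ZT9 replicate 3, 4 without ZT5 replicate 1, ZT9 replicate 1, ZT13 replicate 1 or ZT13 replicate 2, and 5 without ZT17 replicate 2, ZT17 replicate 3 or ZT21 replicate 1. The cause was not tested. The share of all genes is given only for the null with equal cosine values as 1 group. The other counts therefore do not show whether the calls of carriers changed more than those of other genes. JTK had 5 other settings (equal cosine values as 1 group, 24 h alone, filter and scalings). In these, Slc25a39 and Slc25a46 were called in 4, Slc25a23 in 3, Slc25a10 in 2, and Slc25a38 and Slc25a44 in 1. Among the 9 of the main run, Slc25a11 was called in 3, Slc25a29, Slc25a35 and Slc25a37 in 4 and the rest in 5. Of the 19 cosine calls, 16 held in every fit at the threshold of 0.05, the exceptions being Slc25a45 (lost without ZT5 replicate 1), Slc25a51 and Slc25a42. Of 935 refitted amplitudes, 10 lost and 12 gained a call. A large shift of the peak was looked for only in carriers called in the main fit, where none was found. Slc25a27 gave no value with genes of a mean below 1 removed. Scaling to column totals moved the median gene by -0.10 to 0.08 on the log2 scale. No paired analysis was possible because replicate numbers carry no pairing.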

Other observations

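Slc25a25 and Slc25a30 were the carriers with the largest coefficient of variation among livers of the same time, and both were chosen for a closer look after their values were seen. With the mean of each time removed from log2(value + 1), the genes whose deviations over the 18 livers were most like those of Slc25a25, out of 12479 with a mean value of at least 1, were Sik1 (r = 0.93, rho = 0.92, r = 0.94 without the 2 farthest livers), G6pc (r = 0.89, rho = 0.88, r = 0.86 without the 2 farthest livers) and Hapln4 (r = 0.85, rho = 0.84, r = 0.77 without the 2 farthest livers). Sik1 encodes a kinase induced by cAMP and ran from 10.2 to 32.6, and G6pc encodes the last enzyme of glucose output and ran from 88.9 to 716. For Slc25a30 the closest were E2f8 (r = 0.93, rho = 0.95, r = 0.92 without the 2 farthest livers), Abhd17b (r = 0.88, rho = 0.90, r = 0.87 without the 2 farthest livers) and Ube2s (r = 0.87, rho = 0.84, r = 0.84 without the 2 farthest livers). E2f8, a cell cycle repressor, ran from 2.85 to 31.2. These are the extremes of a search over all genes in the same livers, so no p-value is given.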
